A study of Mus musculus with 8 samples.

Results

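The cell cycle and mitosis genes described here are 50 genes that dividing cells switch on to copy their DNA and to separate the copies. They were taken by symbol from a table of 20539 genes measured by RNA sequencing in mouse articular cartilage, and all 50 were present and passed the filter on low values. Of these, 19 serve DNA replication, 25 serve mitosis, 4 regulate the passage from G1 into S phase, and the remaining pair are the proliferation marker Mki67 and the topoisomerase Top2a. Mice aged 4 to 5 months underwent transection of the anterior cruciate ligament (ACLT) in 1 hindlimb and received an antibody at 10 mg/kg 2 times a week, either a placebo antibody (REGN1945) or an antibody against GDF8 (REGN647). GDF8, also called myostatin, is a secreted factor that restrains muscle growth. Cartilage was collected at day 7 from the transected limb and from the contralateral control limb, which gives 4 groups of limbs, control and ACLT under each antibody. Because RNA yields were low, each library was made from a pool of 4 limbs, and each group has 2 pools, labelled A and B. The control limbs were therefore not from untreated or uninjured animals but from the opposite side of injured, antibody-treated mice. Both sexes were used in the study, and the strain of the mice behind each cartilage pool is not given in the sources used here.

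A cell enters the cycle when cyclins of the D and E classes release the E2F transcription factors, which drive the genes of S phase. The MCM helicase is loaded on replication origins by Cdc6 and Cdt1, is activated with Cdc45 and the GINS complex, and is followed by the polymerases and by the enzymes that supply deoxynucleotides. Cyclin B with Cdk1 then starts mitosis, the Aurora and Polo kinases and kinesins build the spindle, and Cdc20 and Ube2c let the anaphase-promoting complex end it. Cartilage of adult joints holds few dividing cells, whereas the red marrow in nearby bone holds many, among them the precursors of red cells and of neutrophils.

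The libraries held between 16442000 and 28102000 reads by an estimate from the steps between low values, and all levels below are CPM, the reads of a gene scaled to a library total of 1000000. The pools held RNA of other tissues in unequal amounts. The summed level of 20 muscle fiber genes ran from 342 to 83024 CPM, and that of 4 hemoglobin genes from 66498 to 127485 CPM. Summed levels of 15 chondrocyte markers ran from 3519 to 8448 CPM and were highest in both placebo ACLT pools. Single markers did not all follow the sum. In placebo ACLT against placebo control, 9 of 14 tested had a fitted log2 fold change below 0 (38.3% of all genes). For anti-GDF8 against placebo in ACLT limbs, all 14 did (61.2% of all genes). Of the chondrocyte markers, Col2a1 measured 168 CPM or more and Acan 28.5 CPM or more in every pool, while Matn1 was at or below 0.64 CPM in every pool and listed at 0 in one of them. These are bulk libraries, so fewer cells of a type and less RNA per cell cannot be told apart.

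The promoters of the replication and mitosis genes carried different short motifs in the RefSeq windows of build GRCm38.p6, which run from 250 bases before to 50 bases after each transcription start. Windows were matched by symbol for 40 of the 50 genes. The genes without a matched window were Ccne2, Mcm4, Aurkb, Cdc25c, Kif20a, Ccna2, Foxm1, Gins1, Gins2 and Tpx2. Both strands were searched for the CHR element TTTGAA, for the CCAAT box, and for E2F sites spelled as TTTCCCGC or TTTGGCGC or TTTGCCGC or TTTCGCGC, where E2F matches may overlap one another. CHR elements and CCAAT boxes recur in promoters of genes that peak late in the cycle, and E2F sites recur in those of genes that peak at the onset of S phase. Among 16 replication genes with a window, an E2F match was found in 7 (43.8%) and a CHR match in 2 (12.5%). Among 19 mitosis genes the order was opposite, with a CHR match in 14 (73.7%) and an E2F match in 1 (5.26%), that of Cdk1. The CCAAT box was found in 75.0% of the replication genes and 84.2% of the mitosis genes. Over all 27025 genes of the promoter table, the shares were 20.2% for CHR, 41.1% for CCAAT and 2.60% for E2F. These matches are a description of the letters in the windows and not a measurement of binding.

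The following stretches run from 180 bases before to 30 bases after the annotated start, on the strand of the gene, with every match to the 3 motifs in capitals. Mcm2, Mcm5 and E2f8 are shown because they passed the test described below, Mcm6 because it held the most E2F matches, and Cdk1, Cdc20 and Top2a as genes of mitosis or of chromosome untangling with CHR matches. A match in capitals that reads TTCAAA or ATTGG lies on the opposite strand.

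Mcm2 (chr6:88898751-88898960, minus strand): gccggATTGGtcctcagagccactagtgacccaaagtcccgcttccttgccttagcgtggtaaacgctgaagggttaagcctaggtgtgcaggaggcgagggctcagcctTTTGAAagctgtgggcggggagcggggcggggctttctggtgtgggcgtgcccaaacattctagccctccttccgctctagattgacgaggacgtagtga
Mcm5 (chr8:75109329-75109538, plus strand): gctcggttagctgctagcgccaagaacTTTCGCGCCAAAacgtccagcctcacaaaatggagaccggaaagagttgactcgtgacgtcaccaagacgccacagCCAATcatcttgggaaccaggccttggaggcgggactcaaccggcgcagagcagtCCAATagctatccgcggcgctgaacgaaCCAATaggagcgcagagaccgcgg
Mcm6 (chr1:128359676-128359885, minus strand): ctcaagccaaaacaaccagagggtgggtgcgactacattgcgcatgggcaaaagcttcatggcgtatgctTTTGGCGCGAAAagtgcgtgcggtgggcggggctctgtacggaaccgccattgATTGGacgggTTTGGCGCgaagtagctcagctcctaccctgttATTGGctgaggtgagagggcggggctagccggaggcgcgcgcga
E2f8 (chr7:48881567-48881776, minus strand): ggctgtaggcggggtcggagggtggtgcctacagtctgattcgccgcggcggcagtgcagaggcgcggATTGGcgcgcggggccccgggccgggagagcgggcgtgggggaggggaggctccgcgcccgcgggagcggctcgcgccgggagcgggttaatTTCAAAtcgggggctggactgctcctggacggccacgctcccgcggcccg
Cdk1 (chr10:69352883-69353092, minus strand): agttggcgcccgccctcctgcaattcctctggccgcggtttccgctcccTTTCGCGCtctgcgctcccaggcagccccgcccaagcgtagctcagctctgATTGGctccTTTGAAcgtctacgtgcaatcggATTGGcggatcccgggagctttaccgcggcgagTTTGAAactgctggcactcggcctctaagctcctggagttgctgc
Cdc20 (chr4:118437314-118437523, minus strand): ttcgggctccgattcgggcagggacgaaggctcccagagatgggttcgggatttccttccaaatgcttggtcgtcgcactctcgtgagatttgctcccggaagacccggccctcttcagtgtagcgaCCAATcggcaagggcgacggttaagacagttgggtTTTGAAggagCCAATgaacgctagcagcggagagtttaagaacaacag
Top2a (chr11:99024160-99024369, minus strand): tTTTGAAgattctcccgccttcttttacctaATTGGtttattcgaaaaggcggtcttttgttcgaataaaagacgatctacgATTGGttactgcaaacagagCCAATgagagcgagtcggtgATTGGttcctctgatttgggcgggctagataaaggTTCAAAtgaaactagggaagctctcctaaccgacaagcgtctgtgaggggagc

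Mcm5 and Mcm6, both subunits of the helicase, carried E2F matches, a pair of them overlapping in each gene, and no CHR match in their windows. E2f8, Cdc20 and Top2a carried CHR and CCAAT matches and no E2F match, and Cdk1 carried all 3 motifs. Mcm2 differed from the other helicase genes shown, with 1 CHR and 1 CCAAT match and no E2F match.

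Levels per length placed Rrm2, the regulatory subunit of ribonucleotide reductase, first among the 50 genes at 167 CPM per kilobase of exon. It was followed by Ccnb2 at 104 and Ube2c at 85.1 CPM per kilobase, and the lowest were Pola1 at 3.70 and Mcm10 at 3.84 CPM per kilobase. The summed level of all 50 genes was 6232 and 5841 CPM under placebo and 7956 and 6878 CPM under anti-GDF8 in control limbs, and 4031 and 5244 CPM under placebo and 7740 and 6200 CPM under anti-GDF8 in ACLT limbs. Both placebo ACLT pools thus lay below all 6 others, and the placebo control pools lay below the anti-GDF8 control pools. Group means were 6036 ± 276 CPM (SD, n = 2) for placebo control limbs, 7417 ± 762 CPM for anti-GDF8 control limbs, 4637 ± 857 CPM for placebo ACLT limbs and 6970.2 ± 1089 CPM for anti-GDF8 ACLT limbs. Placebo ACLT pool A was the lowest of the 8 pools for 47 of the 50 genes, and placebo control pool B was the lowest for the remaining 3. The highest pool was anti-GDF8 control A for 36 genes and anti-GDF8 ACLT A for 14.

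**Figure D1:**
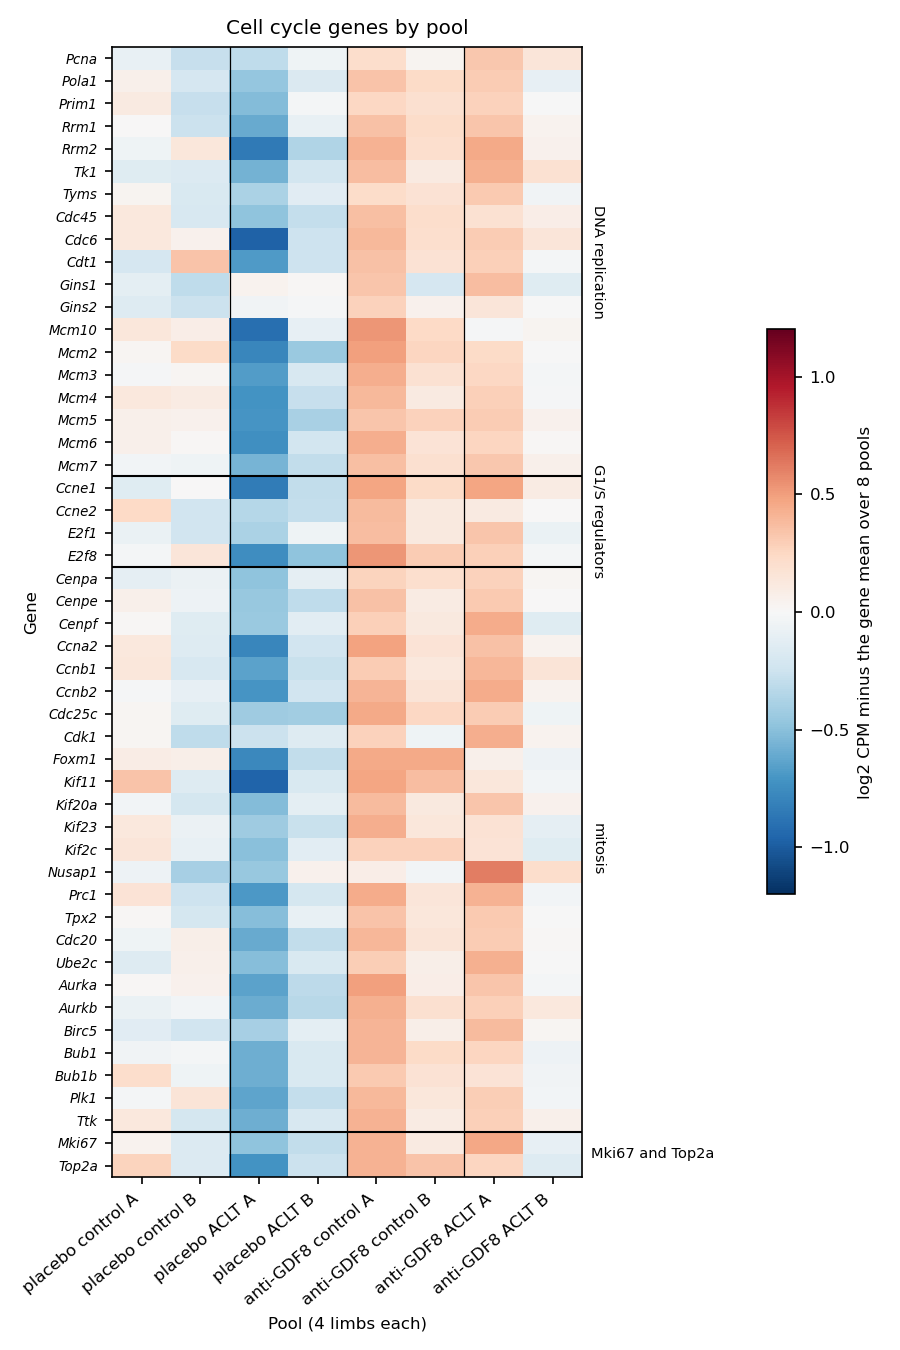
Level of each of the 50 cell cycle genes (rows) in each of the 8 pools (columns) as log2 CPM minus the mean of that gene over the pools. Red is above and blue below the gene mean; placebo ACLT pool A is the lowest column for 47 of 50 genes, and the A pools of both anti-GDF8 groups hold the highest value of all 50.

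Pools of the same group also differed. The median absolute difference between pool A and pool B over the 50 genes was 0.18 and 0.36 for the control and ACLT limbs under placebo and 0.23 and 0.30 for those under anti-GDF8, all as log2. Nearly all genes moved together between pools of 1 group, except in placebo control. Pool B was the higher for 49 of 50 genes in placebo ACLT. Pool A was the higher for 50 of 50 in anti-GDF8 control and 49 of 50 in anti-GDF8 ACLT. In placebo control, pool A was the higher for 37 genes and pool B for 13. The 50 genes are thus not 50 separate observations of a group difference.

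The first comparison asked what ligament transection did under the placebo antibody. Of the 50 genes, 4 fell in placebo ACLT relative to placebo control and none rose at an adjusted p below 0.05, with limma and Benjamini-Hochberg adjustment over 17401 genes. They were Mcm2 and Mcm5 of the replicative helicase, the transcriptional repressor E2f8, and Foxm1, the transcription factor that drives mitotic genes. Over all genes tested, 4.03% were called lower and 11.6% higher in this comparison. At an unadjusted p below 0.05, 22 of the 50 were lower and 0 higher, where 9.36% of all genes were lower. The fitted difference was below 0 for 46 of 50 genes with a median log2 fold change of -0.37, while the median of all genes was 0.17 and 38.3% of them lay below 0. Both ACLT pools were below both control pools for 34 of the 50 genes, against 19.4% of all genes. They were above both for 2 of the 50, against 38.8% of all genes.

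**Figure D2:**
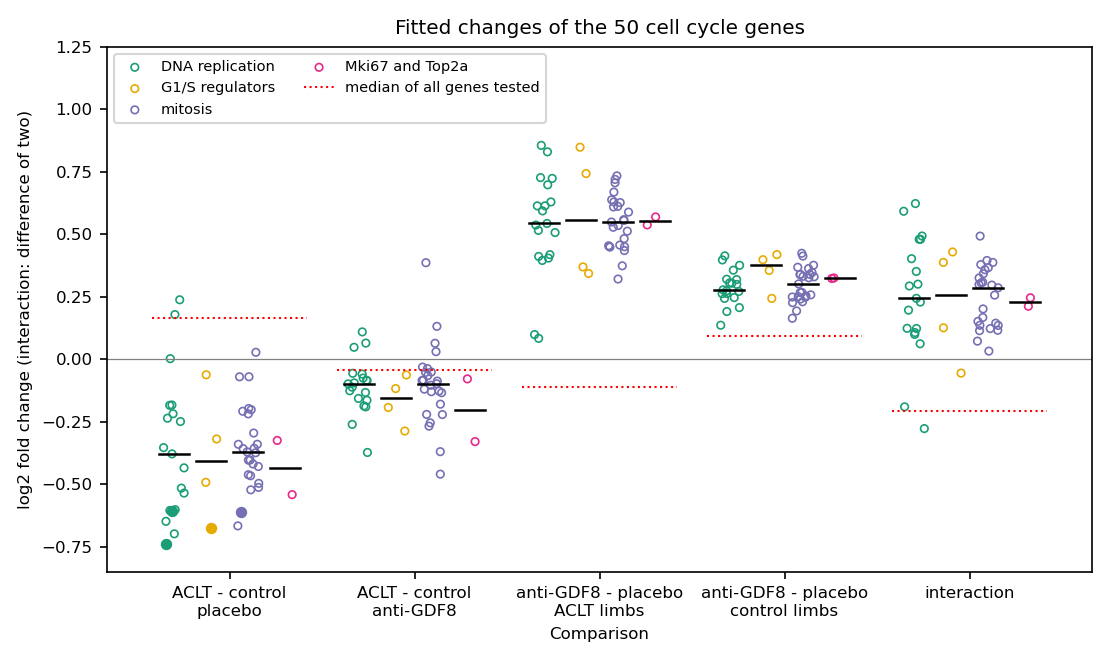
Fitted log2 fold changes of the 50 cell cycle genes (1 point per gene, colored by part) in the 5 comparisons, with the median of each part (black line) and of all 17401 genes tested (red dotted line). Filled points are the 4 genes with an adjusted p below 0.05, all in placebo ACLT against control; in the ACLT limbs every gene lies above 0 for anti-GDF8 against placebo, but none passed the test.

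Origin licensing and helicase genes showed the lowest median of the roles after ACLT under placebo, -0.53 over 12 genes. Mcm2 measured 193 and 223 CPM under placebo and 267 and 226 CPM under anti-GDF8 in control limbs, and 110.4 and 139.8 CPM under placebo and 222 and 189 CPM under anti-GDF8 in ACLT limbs. The placebo ACLT pools were the lowest of all 8 and did not overlap any other group, and the fitted change was a log2 fold change of -0.74, SE 0.17, adjusted p = 0.0236. Mcm5 measured 200.1 and 199 CPM under placebo and 242 and 232 CPM under anti-GDF8 in control limbs, and 117 and 146 CPM under placebo and 237 and 199 CPM under anti-GDF8 in ACLT limbs. It showed the same separation of the placebo ACLT pools (log2 fold change -0.61, SE 0.16, adjusted p = 0.0337). Mcm6 and Mcm7, also subunits of the helicase, measured 251 and 244 CPM under placebo and 327 and 271 CPM under anti-GDF8 in control limbs, and 145 and 207 CPM under placebo and 289 and 244 CPM under anti-GDF8 in ACLT limbs for Mcm6, and 213 and 209.6 CPM under placebo and 280.3 and 248 CPM under anti-GDF8 in control limbs, and 148 and 178 CPM under placebo and 272 and 227 CPM under anti-GDF8 in ACLT limbs for Mcm7. Both genes were lower in both placebo ACLT pools than in every other pool, at a log2 fold change of -0.52, SE 0.20, adjusted p = 0.112 and a log2 fold change of -0.38, SE 0.16, adjusted p = 0.14, and neither passed the threshold. Cdc6, which loads the helicase, had a similar fitted value of -0.70 (adjusted p = 0.0646). Gins1 and Gins2, which encode subunits of the GINS complex, lay on the other side at 0.24 and 0.18 (adjusted p = 0.57 and 0.462).

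DNA synthesis and nucleotide supply genes had a median of -0.22 over 7 genes, and none passed the test (1 at an unadjusted p below 0.05, Rrm2). Rrm2 measured 431 and 491 CPM under placebo and 596 and 512 CPM under anti-GDF8 in control limbs, and 248 and 347 CPM under placebo and 609 and 463 CPM under anti-GDF8 in ACLT limbs. All placebo ACLT values were again the lowest (log2 fold change -0.65, SE 0.21, adjusted p = 0.0726). Rrm1, the catalytic subunit of the same enzyme, measured 297 and 248 CPM under placebo and 379 and 344 CPM under anti-GDF8 in control limbs, and 195 and 278 CPM under placebo and 374 and 306 CPM under anti-GDF8 in ACLT limbs. For Rrm1 placebo ACLT pool B lay between the placebo control pools, so the groups overlapped (log2 fold change -0.22, SE 0.20, adjusted p = 0.505). Pcna, the sliding clamp of the polymerases, was at a fitted change of 0.00 (SE 0.16, adjusted p = 0.994).

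Among the 4 regulators of G1 and S phase, E2f8 measured 79.5 and 89.7 CPM under placebo and 117 and 99.8 CPM under anti-GDF8 in control limbs, and 48.3 and 58.0 CPM under placebo and 98.5 and 79.7 CPM under anti-GDF8 in ACLT limbs. The placebo ACLT pools lay below all others (log2 fold change -0.67, SE 0.17, adjusted p = 0.0314). Ccne1, the cyclin E1 gene, measured 53.3 and 59.0 CPM under placebo and 81.6 and 68.9 CPM under anti-GDF8 in control limbs, and 33.0 and 48.1 CPM under placebo and 81.6 and 63.2 CPM under anti-GDF8 in ACLT limbs. It lay lowest in the placebo ACLT pools without passing the test (log2 fold change -0.49, SE 0.21, adjusted p = 0.153), and E2f1 was near 0 at -0.06 (adjusted p = 0.86).

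Mitotic entry genes had a median of -0.42 over 6 genes. Foxm1 measured 63.4 and 62.8 CPM under placebo and 82.0 and 81.9 CPM under anti-GDF8 in control limbs, and 35.0 and 48.7 CPM under placebo and 62.1 and 57.1 CPM under anti-GDF8 in ACLT limbs. Its placebo ACLT pools did not overlap any other group (log2 fold change -0.61, SE 0.17, adjusted p = 0.0455). Ccna2 and Ccnb1, the cyclin A2 and cyclin B1 genes, measured 246 and 203 CPM under placebo and 315 and 253 CPM under anti-GDF8 in control limbs, and 131 and 191 CPM under placebo and 287 and 232 CPM under anti-GDF8 in ACLT limbs for Ccna2, and 192 and 153 CPM under placebo and 215 and 190.4 CPM under anti-GDF8 in control limbs, and 112 and 145 CPM under placebo and 231 and 194 CPM under anti-GDF8 in ACLT limbs for Ccnb1. Each was lower in both ACLT pools than in both control pools, at a log2 fold change of -0.50, SE 0.22, adjusted p = 0.162 and a log2 fold change of -0.43, SE 0.19, adjusted p = 0.154. Cdk1 itself was close to 0 at -0.07 (adjusted p = 0.84).

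Genes of the spindle kinases and of the spindle checkpoint had a median of -0.40 over 7 genes. Aurkb, the Aurora kinase of the chromosomal passenger complex, measured 121 and 125 CPM under placebo and 172 and 146 CPM under anti-GDF8 in control limbs, and 85.1 and 102 CPM under placebo and 157 and 140.2 CPM under anti-GDF8 in ACLT limbs (log2 fold change -0.40, SE 0.15, adjusted p = 0.11). Birc5, the survivin subunit of that complex, measured 152 and 143 CPM under placebo and 222 and 177 CPM under anti-GDF8 in control limbs, and 128 and 155 CPM under placebo and 218 and 171 CPM under anti-GDF8 in ACLT limbs. Aurkb was separated between the groups, whereas Birc5 in placebo ACLT pool B exceeded both control pools (log2 fold change -0.07, SE 0.18, adjusted p = 0.83). Kinesins and spindle proteins had a median of -0.34 over 7 genes. Nusap1, a microtubule-binding protein of the spindle, measured 168 and 133 CPM under placebo and 185 and 171 CPM under anti-GDF8 in control limbs, and 128 and 182 CPM under placebo and 268 and 202 CPM under anti-GDF8 in ACLT limbs. It was the only mitosis gene with a fitted value above 0 (log2 fold change 0.03, SE 0.21, adjusted p = 0.947), and its placebo groups overlapped. Prc1, which bundles midzone microtubules, measured 152 and 114 CPM under placebo and 184 and 149.7 CPM under anti-GDF8 in control limbs, and 84.1 and 117 CPM under placebo and 180.2 and 133 CPM under anti-GDF8 in ACLT limbs. Its placebo ACLT pool B lay just above control pool B, so the groups overlapped (log2 fold change -0.40, SE 0.23, adjusted p = 0.273).

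Centromere genes had a median of -0.22 over 3 genes. Cenpa, the histone variant of centromeres, measured 121 and 124 CPM under placebo and 157 and 151 CPM under anti-GDF8 in control limbs, and 93.3 and 121 CPM under placebo and 159 and 133 CPM under anti-GDF8 in ACLT limbs. Cenpf, a kinetochore-associated protein, measured 73.2 and 65.7 CPM under placebo and 88.5 and 78.7 CPM under anti-GDF8 in control limbs, and 53.4 and 66.4 CPM under placebo and 99.1 and 65.5 CPM under anti-GDF8 in ACLT limbs. Both placebo ACLT pools of Cenpa lay below both control pools, by less than the rounding of these values for pool B, and the placebo groups overlapped for Cenpf, at a log2 fold change of -0.21, SE 0.16, adjusted p = 0.425 and a log2 fold change of -0.22, SE 0.21, adjusted p = 0.523. The genes of mitotic exit were Cdc20, the activator of the anaphase-promoting complex, and its conjugating enzyme Ube2c. Cdc20 measured 134 and 146 CPM under placebo and 183 and 155 CPM under anti-GDF8 in control limbs, and 91.1 and 113 CPM under placebo and 171 and 140.4 CPM under anti-GDF8 in ACLT limbs (log2 fold change -0.46, SE 0.17, adjusted p = 0.103). Ube2c measured 195 and 226 CPM under placebo and 267 and 227 CPM under anti-GDF8 in control limbs, and 153 and 192 CPM under placebo and 292 and 217 CPM under anti-GDF8 in ACLT limbs (log2 fold change -0.30, SE 0.19, adjusted p = 0.336). Both ACLT pools lay below both control pools for each gene.

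Mki67, the gene of the antigen Ki-67, measured 327 and 282 CPM under placebo and 424 and 341 CPM under anti-GDF8 in control limbs, and 227 and 259 CPM under placebo and 437 and 296 CPM under anti-GDF8 in ACLT limbs. Top2a, which untangles sister chromosomes, measured 284 and 211 CPM under placebo and 315 and 299 CPM under anti-GDF8 in control limbs, and 144 and 197 CPM under placebo and 281 and 212 CPM under anti-GDF8 in ACLT limbs. Both were lower in both placebo ACLT pools than in both placebo control pools, and neither passed the test, at a log2 fold change of -0.32, SE 0.21, adjusted p = 0.33 for Mki67 and a log2 fold change of -0.54, SE 0.22, adjusted p = 0.129 for Top2a.

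**Figure D3:**
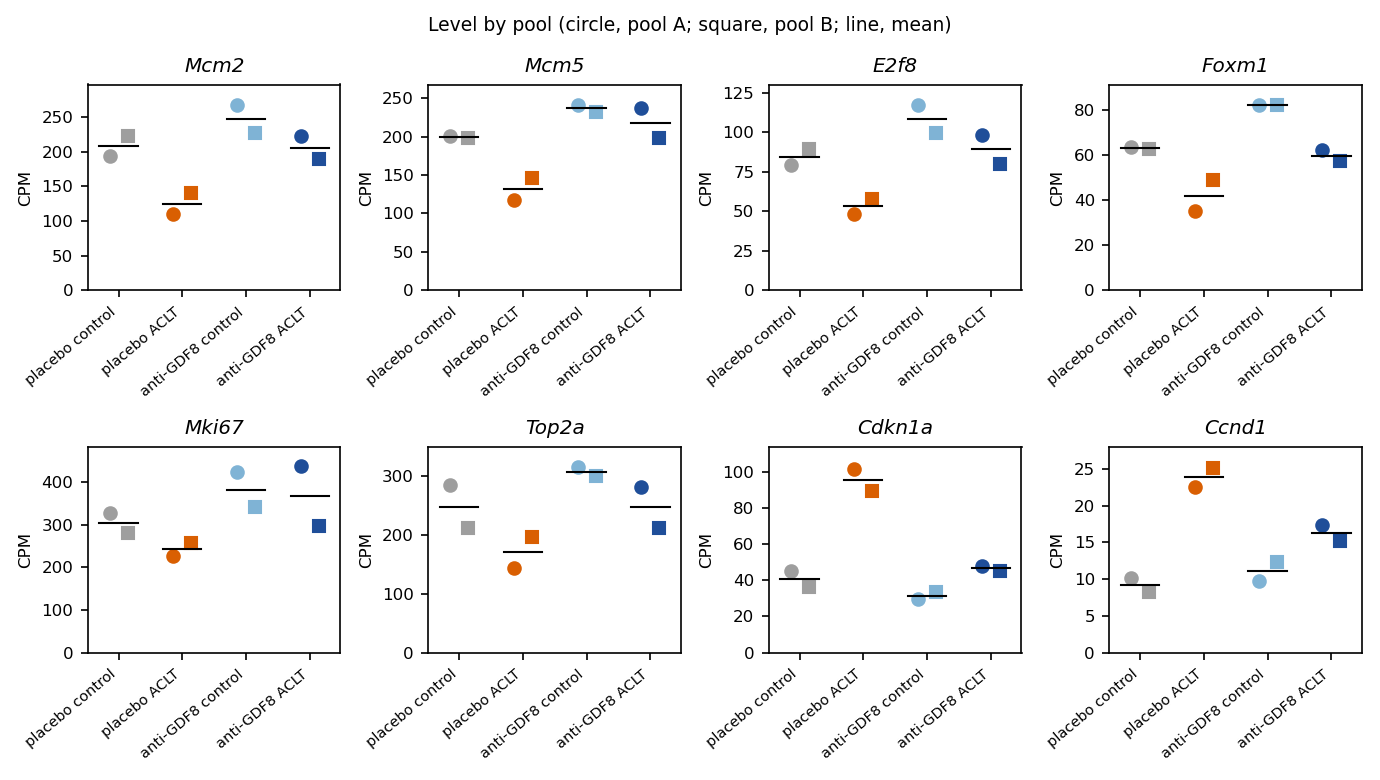
Level in CPM of the 4 cell cycle genes that passed the test (Mcm2, Mcm5, E2f8, Foxm1), of Mki67 and Top2a, and of the CDK inhibitor gene Cdkn1a and the cyclin D1 gene Ccnd1, in each pool (circle, pool A; square, pool B; line, mean of 2 pools). The placebo ACLT pools (orange) are lowest in the first 6 panels and highest in the last 2.

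The 4 calls rested on few pools. None of them held in all 8 fits that left out 1 pool, with Mcm2 called in 5 of 8, E2f8 and Foxm1 in 3 and Mcm5 in 2. A fit without 1 pool rests on a single pool in that group, so fold changes are given for these fits. Over the 8 fits the log2 fold change ran from -0.91 to -0.57 for Mcm2 and from -0.76 to -0.45 for Mcm5. It ran from -0.81 to -0.54 for E2f8 and from -0.85 to -0.37 for Foxm1. Leaving out an anti-GDF8 control pool did not change the fold changes of Mcm5, E2f8 and Foxm1, although their calls were lost. Without placebo control pool B, either placebo ACLT pool or either anti-GDF8 control pool, fewer of all genes were called as well.

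The second comparison asked what transection did under the anti-GDF8 antibody. None of the 50 genes was called with limma, and only Foxm1 had an unadjusted p below 0.05, with a log2 fold change of -0.46, SE 0.17, adjusted p = 0.412. Over all genes, 0.0115% were called lower and 0.598% higher. The fitted difference was below 0 for 43 of 50 genes with a median of -0.10, close to the median of -0.04 over all genes. Both ACLT pools lay below both control pools for 10 of 50 genes, against 23.8% of all genes. Mcm2 had a fitted change of -0.26 (adjusted p = 0.698), E2f8 of -0.29 (adjusted p = 0.657) and Mcm5 of -0.13 (adjusted p = 0.851). Nusap1 was the highest at 0.39 (adjusted p = 0.632), with 268 and 202 CPM in the ACLT pools. Without anti-GDF8 ACLT pool B the median of the 50 turned to 0.04, and without pool A it was -0.25.

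The third comparison asked how the antibodies differed in ACLT limbs. It uses the same placebo ACLT pools as the first, so the values for a gene in the 2 comparisons are not independent. The fitted difference between anti-GDF8 and placebo was above 0 for 50 of 50 genes, from 0.08 for Gins1 to 0.86 for Rrm2, with a median of 0.55. The median of all genes was -0.11. No cell cycle gene passed the threshold with limma, and neither did any other gene in either direction (0% higher and 0% lower), with a smallest adjusted p of 0.121 among the 50. At an unadjusted p below 0.05, 40 of the 50 were higher, made up of 14 of 19 replication genes, 22 of 25 mitosis genes, 2 of 4 G1/S regulators and both Mki67 and Top2a, where 5.60% of all genes were higher. Both anti-GDF8 pools lay above both placebo pools for 46 of 50 genes, against 16.3% of all genes.

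Values for the genes with the clearest separation in this comparison were a log2 fold change of 0.73, SE 0.16, adjusted p = 0.121 for Mcm5, a log2 fold change of 0.67, SE 0.15, adjusted p = 0.123 for Aurkb and a log2 fold change of 0.74, SE 0.17, adjusted p = 0.123 for E2f8. Rrm2 differed most on the fitted scale (log2 fold change 0.86, SE 0.21, adjusted p = 0.132), with 609 and 463 CPM under anti-GDF8 against 248 and 347 CPM under placebo. Mki67 differed by a log2 fold change of 0.57, SE 0.21, adjusted p = 0.226, and Top2a by a log2 fold change of 0.54, SE 0.22, adjusted p = 0.257. The anti-GDF8 ACLT pools of Top2a were 281 and 212 CPM, within the range of the placebo control pools. For Foxm1 they were 62.1 and 57.1 CPM, slightly below the placebo control pools. Leaving out placebo ACLT pool A lowered the median of the 50 genes to 0.36, and leaving out placebo ACLT pool B raised it to 0.76.

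In control limbs the fitted difference between anti-GDF8 and placebo was again above 0 for 50 of 50 genes, with a median of 0.30 against 0.09 over all genes. None was called with limma, the smallest adjusted p was 0.891, and 0% of all genes were called higher or lower. At an unadjusted p below 0.05, 4 of the 50 were higher, against 2.97% of all genes. Both anti-GDF8 pools lay above both placebo pools for 40 of 50 genes, against 23.9% of all genes. Birc5 had the largest fitted value, 0.42, with 222 and 177 CPM under anti-GDF8 against 152 and 143 CPM under placebo. The range over the 50 genes was narrow, from 0.14 for Mcm4 to 0.42.

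The interaction tested whether the change with ACLT differed between the antibodies. It was above 0 for 47 of 50 genes with a median of 0.25, where the median of all genes was -0.21. No cell cycle gene was called and none had an unadjusted p below 0.05 with limma, and 0% of all genes were called lower. The smallest adjusted p was 0.498, for Mcm5 at 0.48 (SE 0.22). The drop after ACLT was called under placebo alone, but a difference between the antibodies in that drop was therefore not detected in these 8 pools.

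DNA replication and mitosis genes gave nearly the same summary in every comparison. The median log2 fold change was -0.38 for replication and -0.37 for mitosis genes after ACLT under placebo, and -0.10 for both under anti-GDF8. For anti-GDF8 against placebo it was 0.54 and 0.55 in ACLT limbs and 0.28 and 0.30 in control limbs, and for the interaction 0.24 and 0.29. The ratio of their summed CPM was between 0.89 and 1.01 in the 8 pools, with group means of 0.962 ± 0.0625 (SD, n = 2) and 0.955 ± 0.0135 in control limbs under placebo and anti-GDF8, and of 0.899 ± 0.0106 and 0.931 ± 0.0209 in the ACLT limbs. The 2 placebo ACLT pools had the lowest ratios, 0.891 and 0.906. Differences inside replication were larger than those between the parts, since the licensing genes had a median of -0.53 and the synthesis genes of -0.22 after ACLT under placebo. The summed level of the 6 helicase genes Mcm2 to Mcm7 was 1171 and 1191 CPM under placebo and 1521 and 1315 CPM under anti-GDF8 in control limbs, and 710 and 932 CPM under placebo and 1386 and 1160 CPM under anti-GDF8 in ACLT limbs.

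Markers of erythroid precursors moved with the cell cycle genes. The summed level of 25 erythroid precursor markers was 7832 and 8458 CPM under placebo and 12038 and 8408 CPM under anti-GDF8 in control limbs, and 4613 and 6903 CPM under placebo and 12161 and 7996 CPM under anti-GDF8 in ACLT limbs, and none of the 25 was at 0 in any pool. The pool with more erythroid signal was also the pool with the higher cell cycle total in 3 of 4 groups, the exception being placebo control. Klf1, the master transcription factor of late erythroid cells, measured 136 and 166 CPM under placebo and 199.7 and 133 CPM under anti-GDF8 in control limbs, and 72.7 and 108 CPM under placebo and 210.3 and 151 CPM under anti-GDF8 in ACLT limbs. After ACLT under placebo, 3 of the 25 fell and none rose, where 4.03% of all genes were called lower and 11.6% higher: Sptb (-1.29, adjusted p = 0.0258), the beta-spectrin of the red cell skeleton, and the transcription factors Nfe2 (-0.57, adjusted p = 0.0317) and Gata1 (-0.71, adjusted p = 0.0451). The median of the 25 was -0.57 there. For anti-GDF8 against placebo in ACLT limbs, the median was 0.85 with 25 of 25 above 0, 23 at an unadjusted p below 0.05 (5.60% of all genes were higher at that threshold) and 0 called with limma. The ratio of the cell cycle total to the erythroid total ran from 0.636 to 0.874. The 4 hemoglobin genes did not share the drop of these markers after ACLT under placebo. All 4 lay above 0 there, with a median of 0.08 and a smallest adjusted p of 0.892 with limma. For anti-GDF8 against placebo in ACLT limbs all 4 lay above 0 too, with a median of 0.44 and a smallest adjusted p of 0.491.

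With the mean log2 level of the erythroid precursor markers added to the model as a covariate, the median of the 50 cell cycle genes for anti-GDF8 against placebo in ACLT limbs went from 0.55 to 0.08, with 41 of 50 above 0. After ACLT under placebo it went from -0.37 to -0.10, with 32 of 50 below 0, and 0 of the 50 were called in place of 4. Of all 17401 genes, 480 were called lower and 678 higher in that fit, against 701 and 2011 without the covariate. Mcm2 kept a fitted value of -0.44 (adjusted p = 0.183), E2f8 of -0.38 (adjusted p = 0.257), Mcm5 of -0.38 (adjusted p = 0.254) and Foxm1 of -0.39 (adjusted p = 0.331). In the interaction the median went from 0.25 to -0.03. The covariate came from the same pools and was itself lowest in both placebo ACLT pools. This fit therefore cannot tell erythroid content apart from the group difference, and the part of erythroid cells in these changes was not tested.

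Neutrophil precursor markers were also lowest in placebo ACLT, but the order of the pools within groups differed from that of the cell cycle genes. The summed level of 16 markers was 31213 and 24084 CPM under placebo and 33566 and 34188 CPM under anti-GDF8 in control limbs, and 23116 and 18751 CPM under placebo and 25152 and 29783 CPM under anti-GDF8 in ACLT limbs, with none at 0 in any pool. Pools A and B were in the opposite order to the cell cycle total in 3 of 4 groups, all except placebo control. After ACLT under placebo, 2 of the 16 fell, Cd177 (-0.75, adjusted p = 0.0317) and the leukotriene B4 receptor gene Ltb4r1 (-0.56, adjusted p = 0.0423), and none rose, where 4.03% of all genes were called lower. Mpo, the myeloperoxidase gene of granulocyte precursors, had a fitted change of -0.83 (adjusted p = 0.0513). The median of the 16 was -0.29 there. For anti-GDF8 against placebo in ACLT limbs it was 0.44, with 16 of 16 above 0 and 0 called with limma. In that comparison 5 of the 16 had an unadjusted p below 0.05, where 5.60% of all genes were higher. The 12 markers of mature neutrophils had medians of 0.03 after ACLT under placebo and 0.01 for anti-GDF8 against placebo in ACLT limbs. The part of precursors in the changes of Cd177 and Ltb4r1 was not tested.

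**Figure D4:**
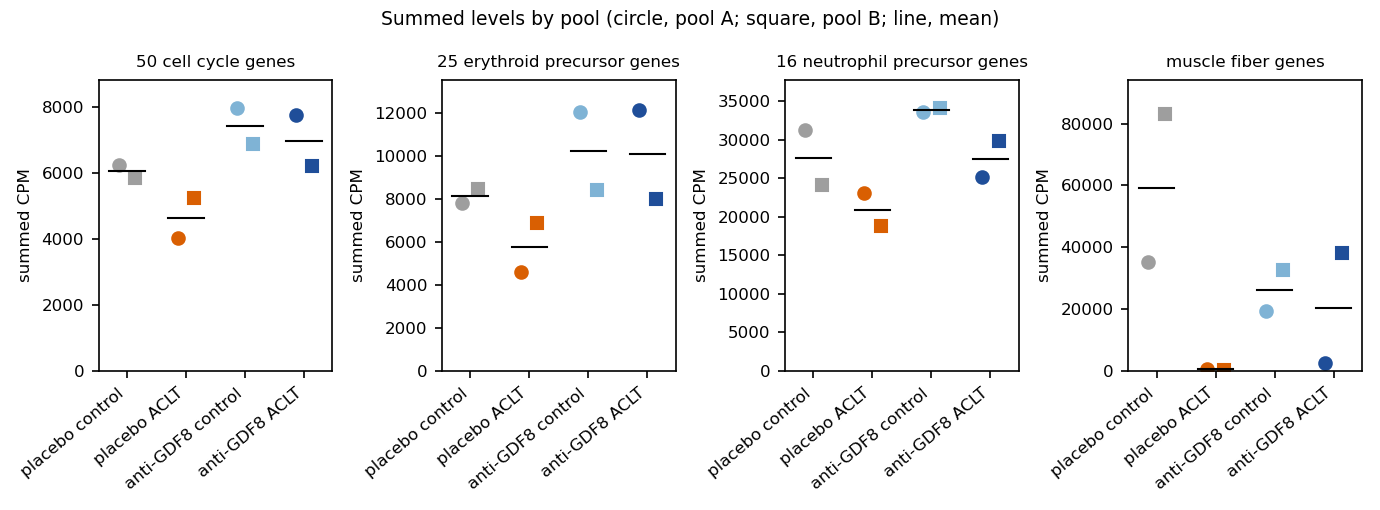
Summed CPM of the 50 cell cycle genes, of 25 erythroid precursor markers, of 16 neutrophil precursor markers and of 20 muscle fiber genes in each pool (circle, pool A; square, pool B; line, mean of 2 pools; each axis starts at 0). The placebo ACLT pools are lowest for the cell cycle and erythroid sums, and within the ACLT groups and anti-GDF8 control the higher pool is the same for these sums and the opposite one for neutrophil precursors.

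Muscle carry-over differed between the groups as well. The muscle fiber sum was 35401 and 83024 CPM under placebo and 19507 and 32765 CPM under anti-GDF8 in control limbs, and 667 and 342 CPM under placebo and 2519 and 38121 CPM under anti-GDF8 in ACLT limbs. CPM are shares of a library, so all levels here are relative to everything else that was sequenced. With the CPM recomputed after leaving muscle, erythroid, hemoglobin, neutrophil and mitochondrial genes out of the total, 10 cell cycle genes fell after ACLT under placebo in place of 4, and with a trimmed mean of log2 ratios as the scale, 19 fell. The share of all genes called lower also rose, from 4.03% to 6.50% and 7.87%. Those scales moved the median of all genes by -0.14 and -0.18. Both divide each library by a single factor, so the distance of the cell cycle genes from that median could hardly change. That distance was -0.54 under both and with the deposited CPM. After quantile normalization, which is not bound in this way, it was -0.47. Of all genes called in this comparison, 74.2% were higher with the deposited CPM, 58.4% with the reduced total, 61.4% after quantile normalization and 53.5% with the trimmed mean. With the muscle fiber level as a covariate, the median of the cell cycle genes was -0.94 after ACLT under placebo. It was 0.92 for anti-GDF8 against placebo in ACLT limbs, and no cell cycle gene was called in either comparison. Of all 17401 genes, 0 were called lower and 1 higher after ACLT under placebo in that fit, so the lack of calls was general. The SE of Mcm2 was 0.38 in that fit, against 0.17 without the covariate.

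Other genes of the same pathways, listed apart from the 50, gave smaller but like-sided medians. Of 45 further replication genes, 1 fell and none rose after ACLT under placebo, with a median of -0.20. That gene was Pold1, the catalytic subunit of polymerase delta, with 103 and 127 CPM in the placebo control pools and 69.6 and 80.9 CPM in the ACLT pools (-0.61, SE 0.16, adjusted p = 0.0388). Pole, of polymerase epsilon, had -0.67 (adjusted p = 0.0552). Of 76 further mitosis genes, 3 fell and 1 rose, with a median of -0.27. Neither count of genes that fell exceeded the 4.03% of all genes called lower. The kinetochore scaffold Knl1 fell by 0.82 on the log2 scale (adjusted p = 0.0254), with 64.1 and 52.9 CPM in control and 28.0 and 38.6 CPM in ACLT pools, and Ccnf, the cyclin F gene, fell by 0.67 (adjusted p = 0.0278). The remaining called genes, named after their values were seen, were Ckap5, a microtubule polymerase (-0.64, adjusted p = 0.0431), and Ckap2, a spindle protein that rose (0.76, adjusted p = 0.0303). In ACLT limbs, anti-GDF8 against placebo gave 0 calls with limma in either list. There, 18 of 45 replication genes and 34 of 76 mitosis genes had an unadjusted p below 0.05 in either direction, against 17.3% of all genes, and the medians were 0.39 and 0.43. The smallest p belonged to Orc1 (1.00, adjusted p = 0.136) and Asf1b (0.57, adjusted p = 0.161) for replication and to Ccnf (0.78, adjusted p = 0.121) and Cdc25b (0.79, adjusted p = 0.147) for mitosis.

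Regulators that act before S phase gave calls in both directions. Of 31 further G1 regulators, 3 rose and 1 fell after ACLT under placebo, shares near those of all genes (11.6% higher and 4.03% lower), and 22 of them lay below 0 with a median of -0.22. Ccnd1, the cyclin D1 gene, measured 10.2 and 8.29 CPM under placebo and 9.81 and 12.3 CPM under anti-GDF8 in control limbs, and 22.5 and 25.1 CPM under placebo and 17.4 and 15.2 CPM under anti-GDF8 in ACLT limbs. Its change under placebo was 1.36 (SE 0.21, adjusted p = 0.00492), and that of Ccnd2 1.04 (SE 0.15, adjusted p = 0.0034). The other calls, named after their values were seen, were the E2F family genes E2f5, which rose (1.33, adjusted p = 0.0367), and E2f6, which fell (-1.10, adjusted p = 0.0318). Of 6 CDK inhibitor genes, 2 rose and none fell, a list too short to set against those shares. Cdkn1a, which encodes p21, measured 45.0 and 36.2 CPM under placebo and 29.5 and 33.5 CPM under anti-GDF8 in control limbs, and 102 and 89.1 CPM under placebo and 48.0 and 45.2 CPM under anti-GDF8 in ACLT limbs. Both placebo ACLT pools lay above all others, with a change of 1.24 (SE 0.16, adjusted p = 0.00285), and Cdkn1c, which encodes p57, rose by 0.89 (SE 0.22, adjusted p = 0.0282). Under anti-GDF8, ACLT gave 0.57 for both Cdkn1a (adjusted p = 0.252) and Ccnd1 (adjusted p = 0.41). For anti-GDF8 against placebo in ACLT limbs none of these genes was called with limma, although 14 of 31 G1 regulators and 3 of 6 inhibitors had an unadjusted p below 0.05 in either direction (17.3% of all genes), and the values were -1.03 for Cdkn1a (adjusted p = 0.12) and -0.55 for Ccnd2 (adjusted p = 0.143). Macrophage and fibroblast markers shared the direction of Cdkn1a and Ccnd1: the summed level of 10 macrophage markers under placebo was 793 and 679 CPM in control limbs and 1529 and 1712 CPM after ACLT, and that of 12 fibroblast markers 9322 and 14923 CPM against 49649 and 30704 CPM. The part of these cell types in the changes of single genes was not tested.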

How the data were processed

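RNA of articular cartilage was extracted with TRI Reagent and purified on columns, and 8 libraries were sequenced. The authors deposited 1 table of CPM for 20539 genes, in which the counts of a library are scaled to a total of 1000000. Per the submitters' processing notes, the tools were Partek, DESeq2 and STAR 2.7.3a and the builds mm39 and mm10, without roles; only 2.23% of the gene starts matched GENCODE M21 on GRCm38, so no gene coordinates of the table are printed. Depths were estimated from the CPM that 1 read is worth, and 69.7% to 75.4% of values under 200 reads came out whole within 0.02. Whole reads were thus not recovered, and no count test was run.

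CPM were multiplied by the median depth of 20088000 reads, 1 read was added, and log2 values were tested with limma 3.58.1 (R 4.3.3; trend, 1 model of 4 group means, 4 residual degrees of freedom) for the 17401 genes that averaged 10 reads (0.498 CPM) or more. Fold changes are on that log2(value + 1 read) scale, which understates the change of low genes. Adjusted p-values are Benjamini-Hochberg over all genes tested, with a threshold of 0.05, two-sided. The fit was checked on simulated counts with independent noise for each gene. Those counts held no shared shift between pools and no unequal muscle carry-over, so the check does not cover these. Group labels came from the titles and descriptions; 1 label of the control samples names quadriceps, whereas their tissue label is cartilage. Titles number the samples 1 and 2 within each group, and the study counts 8 mice per group. Nothing ties a pool to its mice, so that p-values measure the spread between pools.

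The 50 genes, the further pathway lists and the marker lists were chosen with earlier results of these data known. Levels in every pool are given for the 2 genes of each role with the highest mean CPM, for Mki67 and Top2a and for called genes; from further lists, the 2 genes with the smallest p are named. Promoter sequences are from RefSeq (GRCm38.p6). Alternatives covered the pseudocount, filter, scaling, variance estimate, blocks by pool letter or title number, erythroid and muscle covariates, and leaving out each pool. Tables and plots were made with Python 3.11.15, pandas 2.3.3 and matplotlib 3.10.9.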

Additional observations from a re-analysis of the deposited data

How the results depend on the processing

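Of the 4 cell cycle genes called after ACLT under placebo, counts of 3 to 6 were obtained with other pseudocounts, filters, quantile normalization or a robust variance estimate. Over all genes, 701 were called lower in the main fit. With a trimmed mean of log2 ratios, 1368 were. With CPM recomputed without muscle, erythroid, neutrophil and mitochondrial genes (the reduced total), 1130 were. Without the intensity trend 262 were, with the erythroid covariate 480, with the muscle covariate 0, and with only the 4 libraries compared 773. The count of cell cycle genes was 19 with the trimmed mean, 10 with the reduced total and 2 with only the 4 libraries compared. It was 0 without the intensity trend, with the erythroid covariate or with the muscle covariate. These counts moved in the same direction as the calls over all genes, except with only the 4 libraries compared, but not in proportion. With the erythroid covariate, 480 of all genes were called lower and 0 cell cycle genes. With the robust variance estimate, 537 of all genes were called lower and the cell cycle count stayed at 4. The cause was not tested. Over the fits that left out 1 pool, the median log2 fold change of the cell cycle genes ran from -0.53 to -0.22. The genes called in those fits were not always among the 4 of the main fit. Pool letters or title numbers are not stated to pair the pools, and the A minus B differences correlated at 0.0032 to 0.30 between groups; with the replicate block by pool letter the count was 4, and with the block by title number it was 2. The remaining 4 comparisons gave 0 calls among the cell cycle genes under every alternative. The values of single genes cover 21 named genes in ACLT against control under placebo and in anti-GDF8 against placebo in ACLT limbs. After ACLT under placebo, the erythroid covariate turned Rrm1 to 0.10, Birc5 to 0.25, Cenpa to 0.045, Cenpf to 0.15, Ube2c to 0.064 and Mki67 to 0.025, and in the comparison of antibodies in ACLT limbs it turned Birc5 to -0.029 and Cenpf to -0.12. Over the fits that left out 1 pool, Rrm1 ran from -0.47 (without placebo ACLT pool B) to 0.038 (without placebo ACLT pool A) and Birc5 from -0.21 to 0.070 for the same pools. Nusap1, at 0.03 in the first comparison, was -0.15 with the trimmed mean, -0.0083 with quantile normalization, -0.12 with the reduced total, -0.78 with the muscle covariate, -0.14 without placebo control pool B, and from -0.23 (without placebo ACLT pool B) to 0.28 (without placebo ACLT pool A) over the fits that left out 1 pool. Of 924 values of those genes under the alternatives, 863 kept their direction and side of the threshold, 36 lost a call, 9 gained one and 16 changed sign; the cause was not tested. Only Mcm2, Mcm5, E2f8 and Foxm1, after ACLT under placebo, had a call to lose, and every lost call was of these 4 genes. Most of the values that kept their side of the threshold were thus of genes never called. With 2 pools per group, the number of pools limits what could be detected.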

Other observations

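Precursors of B cells, a further dividing lineage of the marrow, lay on the other side of the cell cycle genes in the comparison of antibodies. All 14 markers were below 0 for anti-GDF8 against placebo, with a median of -1.18 in ACLT limbs and -1.16 in control limbs, and 10 and 8 of them had an unadjusted p below 0.05, but none was called with limma. Over all genes, 11.7% were lower at that threshold in ACLT limbs and 1.58% in control limbs. Vpreb1, a surrogate light chain gene of the precursor B cell receptor, measured 7.85 and 4.95 CPM under placebo and 0.851 and 0.959 CPM under anti-GDF8 in control limbs, and 13.3 and 10.7 CPM under placebo and 1.45 and 1.41 CPM under anti-GDF8 in ACLT limbs. Both antibody groups were separated in either limb, with a log2 fold change of -3.02 in ACLT limbs (SE 0.35, adjusted p = 0.12). Igll1, its partner, measured 14.8 and 7.05 CPM under placebo against 0.912 and 1.62 CPM under anti-GDF8 in control limbs. These markers were read beside the cell cycle genes and were chosen for naming after their values were seen.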
